A study of Homo sapiens with 4 samples.

Results

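The genes described here are cyclins, cyclin-dependent kinases (CDKs), their inhibitors and phosphatases, replication licensing factors, mitotic kinases and kinesins, measured in the colon cancer line SW480, which was established from an adenocarcinoma. They were chosen by name, with earlier results of these data known. A pattern of gene name stems (CCN, CDK, CDC, ORC, PLK, NEK, KIF and the like) took 45 of the 1856 probes of a 2-colour oligonucleotide array. CDC42BPB and CDC42SE1 were left out as relatives of CDC42, which left 43 genes with 2 spots each. The treated cells (BM) received a Bacillus mojavensis postbiotic, a preparation from this bacterium grown in MRS medium, at 15% (v/v) for 10 h. The control cells (MRS) received MRS medium alone at 15% (v/v) for the same time. All cells grew in medium with 10% fetal bovine serum, and 5 μg of total RNA was labelled per sample.

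There were 2 samples per group, from separate cultures per the series' design text, and each array held 1 BM and 1 MRS sample of the same replicate number. The sample titles number these pairs 1 and 2, as is done here, while the submitters' own sample names number them 2 and 3. BM was labelled with Alexa Fluor 647 and MRS with Alexa Fluor 555 on both arrays, so in every value below a dye effect on a probe cannot be told apart from the treatment. The groups were taken from the sample titles, since the treatment field gives MRS medium for all 4 samples. The sources used here do not say what the postbiotic contains. All RNA came from whole cultures of 1 cell line, so fewer cells in a phase of the cycle and less RNA per cell cannot be told apart.

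The cell cycle is driven by CDKs, which act only when bound to a cyclin and are held back by inhibitor proteins such as p21 and p27. The origin recognition complex and the MCM helicase license DNA for replication before S phase, RB proteins hold back the E2F factors that switch on S-phase genes, and in mitosis the Aurora, Polo-like and BUB kinases, the kinesin motors and the anaphase-promoting complex order the separation of chromosomes. Many of these genes are transcribed in only part of the cycle, so in a dividing line such as SW480 their RNA largely follows how many cells are in each phase. The promoters of late cell cycle genes often hold a CHR element and CCAAT boxes, and those of S-phase genes often hold E2F sites.

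The starts of 4 of the genes show these letters, or lack them, and are given as context: CDK1 and CCNA2 because they define the group, NEK4 and ORC5 because they had the highest and the lowest ratio of the 43. They come from RefSeq on assembly GRCh38.p14 and run 5′ to 3′ on the gene's strand over 250 bases before and 50 bases after the annotated start, with matches to TTTGAA (CHR), CCAAT or an E2F site on either strand in capitals.
CDK1, the second of its annotated starts, chr10:60778228-60778527, plus strand: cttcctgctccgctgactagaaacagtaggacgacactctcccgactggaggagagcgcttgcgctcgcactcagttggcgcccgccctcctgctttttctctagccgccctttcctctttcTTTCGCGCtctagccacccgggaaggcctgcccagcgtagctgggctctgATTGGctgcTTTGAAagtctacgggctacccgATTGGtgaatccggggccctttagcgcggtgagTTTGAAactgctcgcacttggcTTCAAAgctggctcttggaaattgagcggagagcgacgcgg
CCNA2, chr4:121823834-121824133, minus strand: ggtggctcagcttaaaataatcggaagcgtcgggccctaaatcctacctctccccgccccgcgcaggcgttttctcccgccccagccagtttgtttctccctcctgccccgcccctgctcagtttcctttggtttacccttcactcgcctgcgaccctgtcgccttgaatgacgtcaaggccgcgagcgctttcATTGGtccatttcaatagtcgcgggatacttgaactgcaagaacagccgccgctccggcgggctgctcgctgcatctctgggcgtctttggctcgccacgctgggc
NEK4, chr3:52770891-52771190, minus strand: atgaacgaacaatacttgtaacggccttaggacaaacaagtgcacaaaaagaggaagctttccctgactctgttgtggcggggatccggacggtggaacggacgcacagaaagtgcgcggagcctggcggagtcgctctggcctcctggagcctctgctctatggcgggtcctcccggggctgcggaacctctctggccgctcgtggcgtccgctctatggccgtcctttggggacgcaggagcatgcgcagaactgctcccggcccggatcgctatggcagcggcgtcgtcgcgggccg
ORC5, chr7:104207964-104208263, minus strand: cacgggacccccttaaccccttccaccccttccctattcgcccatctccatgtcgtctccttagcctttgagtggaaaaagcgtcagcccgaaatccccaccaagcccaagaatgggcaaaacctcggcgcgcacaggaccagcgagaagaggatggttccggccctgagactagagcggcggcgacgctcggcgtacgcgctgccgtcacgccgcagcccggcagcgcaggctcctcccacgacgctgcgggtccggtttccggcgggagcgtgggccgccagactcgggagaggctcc

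The CDK1 window held TTTGAA at -69 and -13 and its reverse complement at 10, CCAAT on the minus strand at -78 and -46, and the E2F letters TTTCGCGC at -128, with each position that of the first base of the match, counted from the annotated start. CCNA2 held CCAAT on the minus strand at -56, and NEK4 and ORC5 held none of these letters in their windows. A match is a description of the letters and no evidence of a bound factor. Only TTTGAA was searched as a CHR, so a CHR with other letters is not marked, and its absence cannot be read from these windows. Likewise only TTTGGCGC, TTTCCCGC, TTTCGCGC and TTTGCCGC were searched as E2F sites. An E2F site with other letters is not marked, and its absence cannot be read either.

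**Figure D1:**
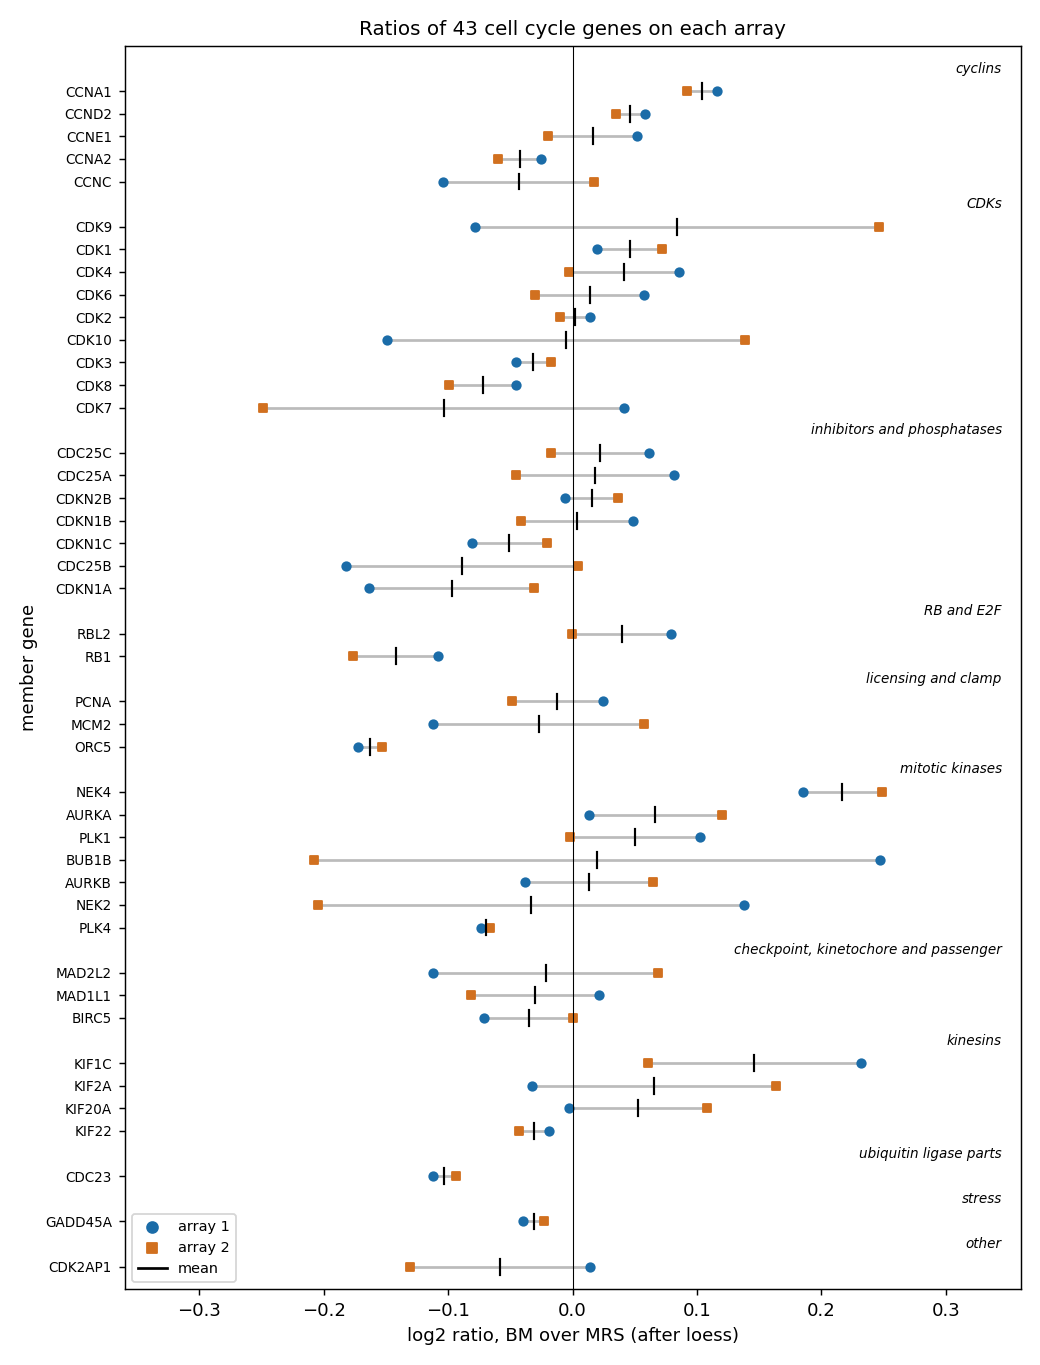
Log2 ratio of BM over MRS (x axis) for each of the 43 genes (y axis, grouped by role), with a circle for array 1, a square for array 2 and a bar for their mean. The arrays stand on opposite sides of 0 for 26 genes, and the means lie between -0.16 and 0.22.

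No cell cycle gene passed the test. Of the 43 genes, 0 had an adjusted p under 0.05 (limma, 2 ratios, Benjamini-Hochberg over 1856 probes), as had 0.0% of all probes, and the smallest adjusted p among them was 0.571, for NEK4. At an unadjusted p under 0.05 stood 2 genes, NEK4 and ORC5, or 4.65% of the 43, against 6.57% of all probes. The mean log2 ratios ran from -0.16 to 0.22, or 0.893-fold to 1.16-fold. Their median was -0.0053, against -0.0057 over all probes, and the median absolute ratio was 0.043, against 0.051 over all probes. A positive mean was found in 21 genes and a negative one in 22.

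The 95% interval of the mean ratio lay within 1.2-fold for 34 of the 43 genes and within 1.5-fold for all 43, and its largest bound was 1.28-fold. The intervals draw on a spread shared by all probes, are not adjusted for the number of genes, and leave a dye effect uncovered. They also hold for the loess scaling alone. With median centring the mean ratios of NEK4 (0.54), KIF1C (0.52) and PLK4 (0.21) lay outside their own intervals. With plain background subtraction that of KIF22 (-0.34), a dim probe, lay outside its interval too.

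The same direction on both arrays was shared by 17 genes. NEK4, KIF1C, CCNA1, AURKA, CCND2 and CDK1 were higher in BM on both, 6 of 43 or 14.0%, against 24.6% of all probes. ORC5, RB1, CDC23, PLK4, CDK8, CDKN1A, CCNA2, CDKN1C, GADD45A, KIF22 and CDK3 were lower in BM on both, 11 of 43 or 25.6%, against 28.4% of all probes. After loess, neither share exceeded that of all probes. With median centring 10 of the 43 (23.3%) were higher on both, against 30.0% of all probes, and 16 (37.2%) lower, against 30.0% of all probes. With print-tip loess 10 (23.3%) were higher on both, against 23.1% of all probes. Below, values are normalized log2 intensities per sample and log2 ratios of BM over MRS per array, with the mean ± SD over the 2 arrays (n = 2 throughout). For genes with per-sample values, square brackets give the lowest and highest mean ratio over 8 other settings with all samples kept (7 for KIF22, which is lost when dim probes are left out), and stand only where some setting moved the mean by more than 1.5 times.

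The cyclins, the activating partners of the CDKs, gave 2 genes higher on both arrays, 1 lower and 2 with opposite signs, around a median ratio of 0.016. CCNA1, a cyclin A known mainly from germ cells, stood at 12.34 and 12.84 in the BM samples, against 12.22 and 12.75 in the MRS samples. The ratio was 0.12 on array 1 and 0.092 on array 2, a mean of 0.10 ± 0.017 (adjusted p = 0.779, limma). BM was higher within each array, but the samples of array 2 were both above those of array 1, so the groups overlapped. CCND2, a D-type cyclin of G1, stood at 12.55 and 12.37 in the BM samples, against 12.50 and 12.34 in the MRS samples, and both ratios were small, 0.058 and 0.035.

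CCNA2, the cyclin A of dividing somatic cells and of S phase and G2, stood at 10.42 and 9.63 in the BM samples, against 10.44 and 9.69 in the MRS samples. Its ratio was -0.025 on array 1 and -0.060 on array 2, a mean of -0.043 ± 0.025 [-0.093 to 0.029] (adjusted p = 0.884, limma). The gap between the arrays was far larger than that between the treatments, and the mean turned positive with print-tip loess and also under the series matrix values. CCNE1, the cyclin of the G1 to S transition, had opposite signs, 0.052 and -0.020. CCNC, which works with CDK8 in the Mediator complex of transcription, also had opposite signs, -0.10 and 0.017.

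Of the 9 CDKs, 1 had both ratios above 0, 2 had both below 0 and 6 had opposite signs, around a median ratio of 0.0017. CDK1, the kinase that drives entry into mitosis, stood at 8.17 and 8.67 in the BM samples, against 8.15 and 8.60 in the MRS samples. Its ratio was 0.020 on array 1 and 0.072 on array 2, a mean of 0.046 ± 0.037 [0.029 to 0.068] with a 95% interval of -0.10 to 0.19 (adjusted p = 0.884, limma). Each BM sample was slightly above its MRS partner, and the groups overlapped because both samples of array 2 were above both of array 1. CDK2, the partner of cyclins E and A, gave 0.014 and -0.010, and the G1 kinases gave 0.086 and -0.0029 for CDK4 and 0.057 and -0.030 for CDK6. None of these 3 kept one sign over the arrays.

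CDK8, the kinase of the Mediator complex, stood at 7.27 and 7.67 in the BM samples, against 7.31 and 7.77 in the MRS samples. Its mean ratio was -0.072 ± 0.038 [-0.13 to -0.025] (adjusted p = 0.819, limma), lower in BM on both arrays, with overlapping groups. CDK3, a kinase of the exit from quiescence, gave -0.045 and -0.018, also lower on both. CDK9, a kinase of transcript elongation, stood at 8.78 and 10.69 in the BM samples, against 8.86 and 10.45 in the MRS samples. It was lower in BM on array 1 (-0.079) and higher on array 2 (0.25), a mean of 0.084 ± 0.23 [0.042 to 0.11]. CDK7, the CDK-activating kinase, gave 0.041 and -0.25, and CDK10 gave -0.15 and 0.14, so these too had no shared direction.

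**Figure D2:**
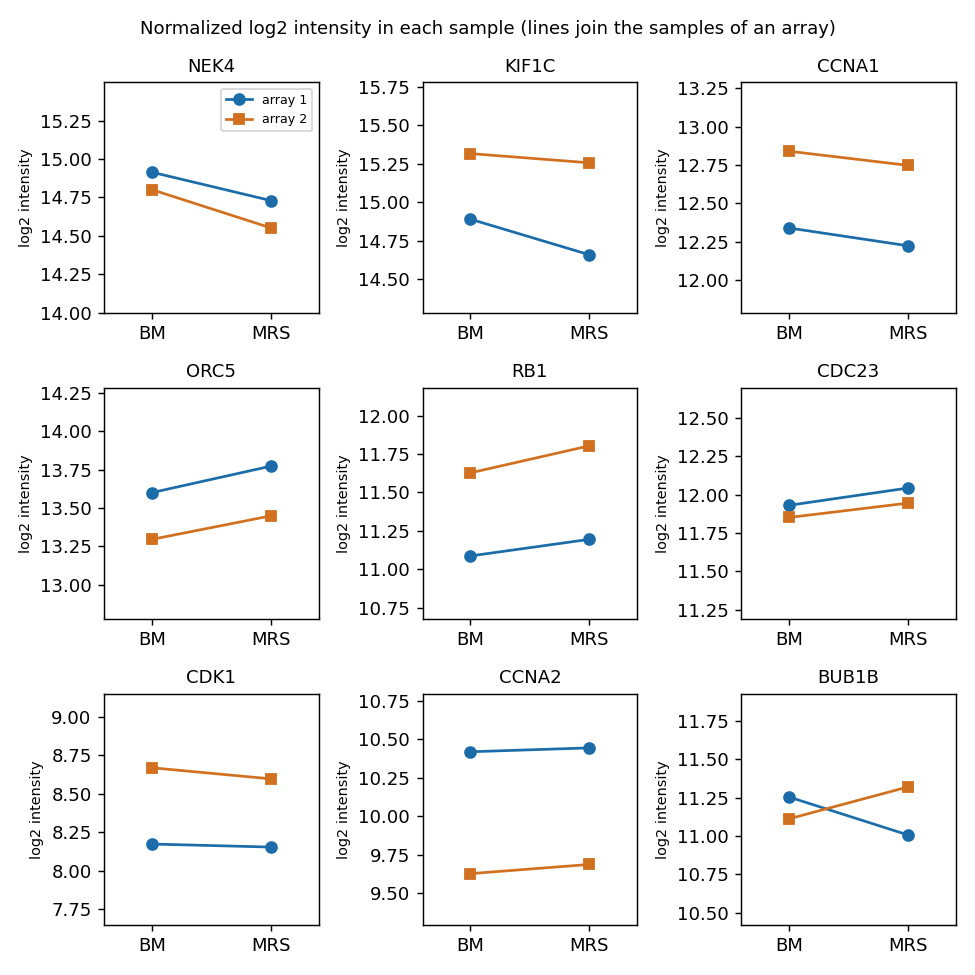
Normalized log2 intensity (y axis, each panel spanning the same number of log2 units) in the BM and the MRS sample of each array, joined by a line, for 9 of the genes. The lines of NEK4, KIF1C, CCNA1 and CDK1 slope down to MRS on both arrays, those of ORC5, RB1, CDC23 and CCNA2 slope up to MRS, and those of BUB1B cross.

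Of the 7 CDK inhibitors and CDC25 phosphatases, 0 had both ratios above 0, 2 had both below 0 and the other 5 had opposite signs. CDKN1A, which encodes p21, an inhibitor of G1 and S-phase CDKs, stood at 10.11 and 9.64 in the BM samples, against 10.27 and 9.67 in the MRS samples. Its ratio was -0.16 on array 1 and -0.031 on array 2, a mean of -0.10 ± 0.093 [-0.15 to -0.10] (adjusted p = 0.783, limma). It was lower in BM on both arrays, mainly on array 1, with overlapping groups. CDKN1C, which encodes p57, stood at 11.41 and 11.78 in the BM samples, against 11.49 and 11.80 in the MRS samples, a mean ratio of -0.051 ± 0.043 [-0.082 to -0.031].

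The other inhibitors gave 0.049 and -0.041 for CDKN1B, which encodes p27, and -0.0063 and 0.037 for CDKN2B, which encodes p15. The phosphatases that activate CDKs gave 0.082 and -0.045 for CDC25A, -0.18 and 0.0047 for CDC25B and 0.062 and -0.018 for CDC25C. None of these 5 kept one sign, and CDC25A was not at 1.5 times its local background in every sample, reaching 1.30 times in its dimmest, so its ratio rests on signal near background.

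RB1, the retinoblastoma protein gene and brake on E2F factors, stood at 11.09 and 11.63 in the BM samples, against 11.19 and 11.80 in the MRS samples. Its ratio was -0.11 on array 1 and -0.18 on array 2, a mean of -0.14 ± 0.048 with a 95% interval of -0.29 to 0.0028 (adjusted p = 0.770, limma). BM was lower within each array, and the groups overlapped since array 2 was brighter for both. Its relative RBL2, which encodes p130, gave 0.079 and -0.00015.

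Among the 3 genes of licensing and the replication clamp, ORC5, a subunit of the origin recognition complex, had the lowest ratio of the 43. It stood at 13.60 and 13.30 in the BM samples, against 13.77 and 13.45 in the MRS samples. The ratio was -0.17 on array 1 and -0.15 on array 2, a mean of -0.16 ± 0.014 [-0.16 to -0.035], or 0.893-fold, with a 95% interval of -0.30 to -0.024 (adjusted p = 0.692, limma). The arrays gave nearly the same ratio, but the BM sample of array 1 was above the MRS sample of array 2. MCM2, a subunit of the replicative helicase, gave -0.11 and 0.057, and PCNA, the clamp that holds DNA polymerase, gave 0.024 and -0.048. Neither kept one sign, so ORC5 was the 1 gene of this group with a shared direction.

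The 7 genes grouped as mitotic kinases, by name stem and not by a known role of each, held 2 genes higher on both arrays. Of the others 1 was lower and 4 had opposite signs, around a median ratio of 0.020. NEK4, a kinase of the NIMA family named for its relation to a mitotic kinase of Aspergillus, had the highest ratio of the 43. It stood at 14.91 and 14.80 in the BM samples, against 14.73 and 14.55 in the MRS samples. The ratio was 0.18 on array 1 and 0.25 on array 2, a mean of 0.22 ± 0.045 [0.11 to 0.54], or 1.16-fold, with a 95% interval of 0.073 to 0.36 (adjusted p = 0.571, limma). Both BM samples were above both MRS samples, which held for this 1 gene of the 43 (2.33%), against 2.96% of all probes.

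PLK4, the kinase that starts centriole duplication, stood at 14.46 and 14.46 in the BM samples, against 14.53 and 14.52 in the MRS samples. Its ratio was -0.074 on array 1 and -0.066 on array 2, a mean of -0.070 ± 0.0056 [-0.073 to 0.21] (adjusted p = 0.819, limma). Both BM samples were below both MRS samples, as was the case for CDC23 too, 2 of 43 genes (4.65%), against 3.5% of all probes. With median centring the ratio of PLK4 turned to 0.21.

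AURKA, the Aurora kinase of the spindle poles, stood at 10.47 and 10.28 in the BM samples, against 10.46 and 10.16 in the MRS samples. Its mean ratio was 0.066 ± 0.076 [-0.0037 to 0.072] (adjusted p = 0.865, limma), and nearly all of it came from array 2. AURKB, the Aurora kinase of the chromosomal passenger complex, gave -0.038 and 0.065, and PLK1, the Polo-like kinase of mitotic entry, gave 0.10 and -0.0024. Neither kept one sign.

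BUB1B, the checkpoint kinase also known as BUBR1, differed most between the arrays. It stood at 11.25 and 11.11 in the BM samples, against 11.01 and 11.32 in the MRS samples. BM was higher on array 1 (0.25) and lower on array 2 (-0.21), and the mean was 0.020 ± 0.32 [-0.019 to 0.035]. The ratios of its 2 spots differed by 0.053 on array 1 and 0.048 on array 2, much less than the arrays did. NEK2, a centrosomal kinase, stood at 9.76 and 9.68 in the BM samples, against 9.62 and 9.88 in the MRS samples and likewise turned, with 0.14 and -0.20, a mean of -0.033 ± 0.24 [-0.080 to -0.0071]. Its spots differed by 0.015 on array 1 and 0.16 on array 2, the largest gap between spots among the 43.

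MAD1L1, of the spindle checkpoint, MAD2L2, a MAD2-like gene, and BIRC5, which encodes survivin of the chromosomal passenger complex, had opposite signs on the arrays in all 3 cases, with mean ratios between -0.035 and -0.022, and between -0.082 and -0.0025 under 4 other scalings. Of the 4 kinesins, the motors that move along microtubules, KIF1C was higher on both arrays, KIF22 was lower and 2 had opposite signs. KIF1C, a transport motor that the name pattern takes in although it is not known as a cell cycle gene, stood at 14.89 and 15.32 in the BM samples, against 14.66 and 15.26 in the MRS samples. Its ratio was 0.23 on array 1 and 0.060 on array 2, a mean of 0.15 ± 0.12 [0.074 to 0.52] (adjusted p = 0.770, limma). The BM samples were above their MRS partners, more so on array 1, with overlapping groups.

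KIF2A, which takes microtubules apart at their ends, gave -0.033 and 0.16, and KIF20A, a motor of cytokinesis, gave -0.0028 and 0.11. KIF22, a motor on chromosome arms, stood at 6.53 and 6.82 in the BM samples, against 6.55 and 6.87 in the MRS samples and was not well above background, at 1.13 times its local background in its dimmest sample. No fold is given for it, and its ratio ranged over [-0.34 to 0.080] with the settings.

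CDC23, a subunit of the anaphase-promoting complex, stood at 11.93 and 11.85 in the BM samples, against 12.04 and 11.94 in the MRS samples. Its ratio was -0.11 on array 1 and -0.094 on array 2, a mean of -0.10 ± 0.013 (adjusted p = 0.779, limma). Each BM sample was below both MRS samples. GADD45A, a stress gene that is induced by DNA damage, stood at 11.85 and 11.21 in the BM samples, against 11.89 and 11.23 in the MRS samples, a mean ratio of -0.031 ± 0.012 [-0.055 to -0.020]. CDK2AP1, a CDK2-binding protein gene, gave 0.014 and -0.13 and had no shared direction.

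The ratios of the 2 arrays were set side by side gene by gene. Over the 43 genes, which are no replicates of each other, the ratios of array 1 and array 2 correlated at -0.041 (Pearson) and -0.023 (Spearman), against 0.11 and 0.083 over all probes, given as a description with no test. The points of one array share their labelling, print and normalization. The median absolute difference between the arrays was 0.087 for the 43 genes, against 0.090 for all probes. The ratios of the 2 spots of a gene differed by a median of 0.026 on array 1 and 0.024 on array 2. Those spots share a hybridization, while the arrays hold separate cultures.

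**Figure D3:**
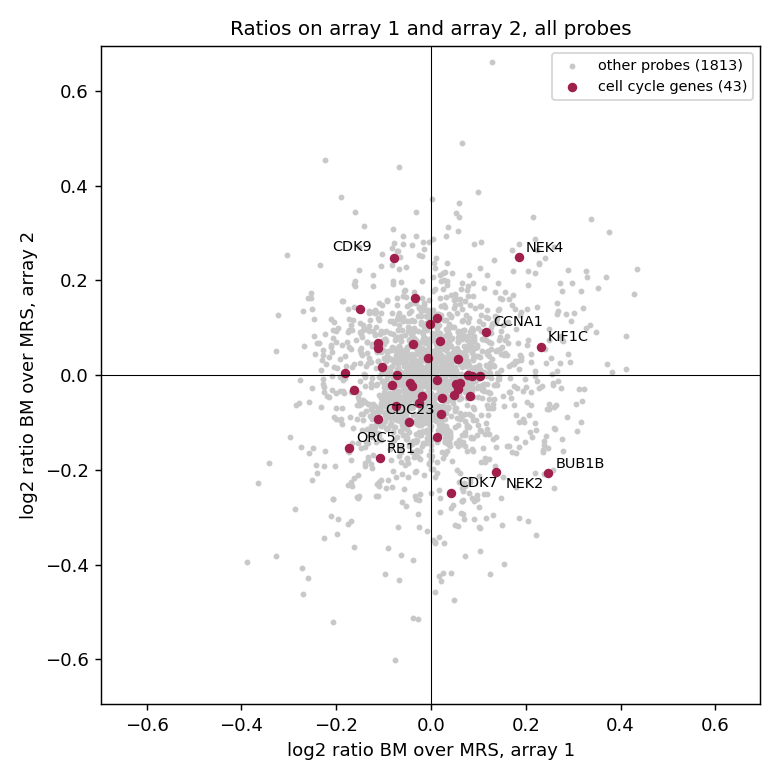
Log2 ratio of BM over MRS on array 1 (x axis) and array 2 (y axis) for the 43 cell cycle genes (dark points) and the other 1813 probes (grey points). The dark points form a cloud around 0: NEK4, KIF1C and CCNA1 lie at the upper right, ORC5, RB1 and CDC23 at the lower left, and BUB1B and NEK2 at the lower right.

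The genes were also grouped by promoter letters, as a description with no test. Of the 43 genes, 37 had a RefSeq promoter in the table used, with 56 starts in all. TTTGAA was found in 7 genes, BUB1B, CCNC, CDC25C, CDK1, PLK1, PLK4 and RBL2, and in 16.1% of the 56 windows, against 15.2% of 35116 windows of all genes. Their median log2 ratio was 0.022, and that of the genes without it was -0.017. CCAAT was found in 17 genes and 39.3% of the windows, against 34.6% of all windows, with a median ratio of -0.012, and of 0.0042 in the genes without it. The E2F letters TTTGGCGC, TTTCCCGC, TTTCGCGC or TTTGCCGC were found in CDC23, CDC25A, CDK1, CDK10, MCM2 and PCNA and in 12.5% of the windows, against 3.31% of all windows. The median ratio was -0.0087 with these letters and 0.0037 without. All letters were searched on both strands, and no set of letters holds another. A CHR with letters other than TTTGAA was not searched, so the genes without TTTGAA are not shown to lack one. The same holds for E2F sites with letters other than those listed.

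Other genes of cell division that the name pattern does not take were read from a list of replication, cohesion, checkpoint and spindle genes. Of its 34 measured probes of 33 genes, 0 passed the test, while BM was higher on both arrays for 10 (29.4%, against 24.6% of all probes), lower for 7 (20.6%, against 28.4%) and of opposite signs for 17. Their median ratio was 0.014, and 7 (20.6%) had an unadjusted p under 0.05, against 6.57% of all probes. The list was made with earlier results of these data known, so nothing about cell division genes is read from this share. DUT, described next, is among these 7. DUT, the enzyme that keeps uracil out of DNA, was saturated in both BM samples, with spots at the scanner's maximum of 65535. After loess it gave 0.26 and 0.27, a mean of 0.27 [0.24 to 0.76] (adjusted p = 0.571, limma). These ratios hold clipped BM values, so the size of the difference cannot be read from them. STAG1, a cohesin subunit gene, gave 0.23 and 0.24. No spot of the 43 genes was saturated in any sample.

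On the other side, YWHAE, a 14-3-3 protein gene whose family binds CDC25 phosphatases, gave -0.25 and -0.22. MDM2, a ubiquitin ligase gene, gave -0.15 and -0.26, and HDAC2, a histone deacetylase gene, gave -0.18 and -0.16 [-0.17 to 0.091], turning positive with median centring. The adjusted p of these 5 genes lay between 0.571 and 0.681 (limma). The proliferation markers gave 0.16 and 0.042 for TOP2A, a DNA topoisomerase of dividing cells, and 0.025 and 0.023 for TYMS, the thymidylate synthase, also without passing.

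The choice of scaling moved some ratios by more than their size after loess. With median centring in place of loess, a scaling that does not remove a trend of the ratio with intensity, NEK4 stood at 0.54 (adjusted p = 0.0234, limma) and KIF1C at 0.52 (adjusted p = 0.0252, limma). These 2 of 43 genes passed there, both higher in BM, against 1.78% of all probes passing as higher. NEK4, KIF1C, PLK4 and ORC5 were the 4 of the 43 genes among the brightest 10% of probes, and all 4 moved upward with median centring. Between loess and 4 other scalings, the mean ratio changed sign at least once for 14 of the 43 genes.

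**Figure D4:**
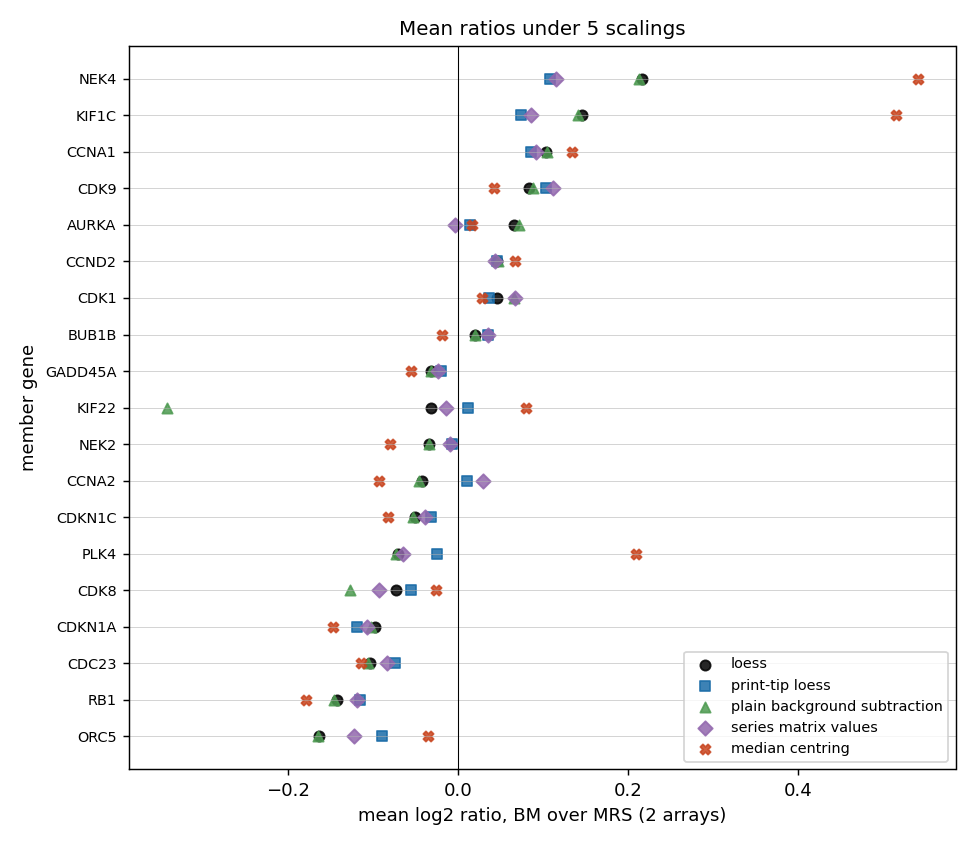
Mean log2 ratio of BM over MRS over the 2 arrays (x axis) for the named genes (y axis) under loess, print-tip loess, plain background subtraction, the series matrix values and median centring. NEK4 and KIF1C lie at 0.54 and 0.52 with median centring and at 0.22 and 0.15 with loess, PLK4 turns to 0.21 with median centring, and KIF22, a dim probe, lies at -0.34 with plain subtraction.

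The authors' deposited table scores each spot by a z ratio of the group means. Of the 86 spots of these genes, 3 had a z ratio of at least 2 in size in the authors' deposited table (3.49%), against 4.83% of all 3786 spots, a threshold chosen here. They were 1 spot of CDK9 at 2.23, whose other spot had 1.81, and both spots of KIF22, at -2.08 and 2.35. KIF22 thus had opposite signs on its 2 spots in the authors' deposited table, and CDK9 opposite signs on its 2 arrays after loess.

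The signal of the samples bears on what these values can show. The median raw intensity was 1655 and 1895 in the BM samples, against 1985 and 2186 in the MRS samples, over local backgrounds of 79.5 and 101.7 in BM and 49.6 and 51.9 in MRS. Of the 43 genes, 41 reached 1.5 times their background in all 4 samples, including CDK1 and CCNA2. So did all 8 measured markers of colon epithelium, but also all 7 measured leukocyte markers and all 6 measured fibroblast markers, among them PTPRC and COL3A1, which a pure epithelial culture should lack. Signal above local background is therefore no proof that a gene is transcribed here, and what share of it each probe owes to other RNA was not tested. The mean ratios of the leukocyte markers lay between -0.20 and 0.34 and those of the fibroblast markers between -0.17 and 0.084, and none passed the test.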

How the data were processed

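Expression was measured on 2 arrays of 3840 spots, each with 1 BM and 1 MRS sample. Per the file headers, the authors deposited the mean raw intensity and local background intensity per spot and channel. R 4.2.2 appears in the submitters' processing notes, with no role stated, and the sources used here do not name the image software. The series matrix holds net intensities, which in the BM channel carry a further factor that depends on intensity. In the authors' deposited table each spot has a z ratio, a score, and a fold change as a score on a logarithmic scale with base 1.2.

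In limma 3.58.1, run in R 4.3.3, background was corrected by normexp with an offset of 50, and loess (span 0.3) was fitted within each array. The 54 control spots had weight 0 and were then dropped. Spots of one accession were averaged, giving 1856 probes. Of the 43 members, 41 were named by accession and 2 by symbol through RefSeq, and 4 older names were updated (CDC2 to CDK1, STK6 to AURKA, KIF2 to KIF2A, ORC5L to ORC5). Arrays were not scaled to each other, so per-sample levels also differ between arrays. Mean ratios were tested two-sided with limma (an intercept on 2 ratios, eBayes with a prior SD of 0.083 on 3.50 degrees of freedom, Benjamini-Hochberg over all probes, threshold 0.05). P-values draw on the spread between 2 pairs of cultures and on the prior spread shared by all probes. With only 2 ratios per probe, the prior carries more weight than the probe's own spread. The pairing comes from the labels, which put samples of one number on one array, and each within-array ratio holds that block. Steps were tested on simulated data.

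The members and lists were chosen with earlier results of these data known. Per-sample values are given for CDK1, CCNA2, up to 8 genes higher and up to 8 lower on both arrays with the largest smaller absolute ratio, up to 2 per role in that order, and the 3 that differed most between arrays. The other members are given by their 2 ratios alone or by ranges, to account for each. Of the list of other cell division genes, up to 6 were taken in the same order, of which 1 is not reported here. Other settings were plain background subtraction (floor 1), median centring, print-tip loess, the series matrix values, dim probes left out, 1 accession per gene, a prior with a trend, no block, and each sample or array left out.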

Additional observations from a re-analysis of the deposited data

How the results depend on the processing

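The number of genes that passed was 0 among the 43 members, the 34 probes of other cell division genes and all 1856 probes, except with median centring, where 2, 1 and 34 passed (the 1 was DUT, which is saturated in BM). Without the replicate block (no pairing by array) 0 members passed and the smallest adjusted p was 1.0 (limma). That fit lets the gap between arrays into the error, so nothing about the effect of the pairing is read from it. The median ratio of the members was -0.0053, -0.025 with median centring and -0.018 to -0.0028 on 1 array alone. Members higher on both arrays numbered 6 (14.0%, against 24.6% of all probes). They numbered 10 with median centring (23.3%, against 30.0%) and with print-tip loess (23.3%, against 23.1%). Those lower on both numbered from 9 with print-tip loess (20.9%, against 27.9% of all probes) to 16 with median centring (37.2%, against 30.0%). The cause of these moves was not tested. The sign turned for 9 of the 43 members with median centring, 10 with print-tip loess, 9 with the series matrix values and 0 with plain subtraction. Among the 24 genes named it turned with median centring for BUB1B (-0.019), HDAC2 (0.091), KIF22 (0.080) and PLK4 (0.21), with print-tip loess for CCNA2 (0.011) and KIF22 (0.012), and with the series matrix values for AURKA (-0.0037) and CCNA2 (0.029). Leaving out 1 sample, with no block and the lone sample assumed to vary like the other group, lets the gap between arrays into the ratio by construction, and the sign turned for 16 of the 24 genes named. With 1 sample or 1 array left out, the ratios ran over -0.20 to 0.33 for AURKA, -0.21 to 0.25 for BUB1B, -0.14 to 0.35 for CCNA1, -0.59 to 0.51 for CCNA2, -0.070 to 0.16 for CCND2, -0.68 to 0.85 for CDK9, -0.57 to 0.37 for CDKN1A, -0.22 to 0.12 for CDKN1C and -0.39 to 0.33 for GADD45A. They ran over -0.031 to 0.32 for KIF1C, -0.23 to 0.16 for NEK2, -0.33 to 0.0022 for ORC5, -0.16 to 0.022 for PLK4, -0.41 to 0.12 for RB1, -0.17 to 0.64 for STAG1 and -0.67 to 0.19 for YWHAE. Of those that kept their sign, they ran over 0.016 to 0.42 for NEK4, 0.0096 to 0.082 for CDK1, -0.16 to -0.043 for CDC23, -0.14 to -0.0089 for CDK8, -0.049 to -0.013 for KIF22, -0.33 to -0.084 for MDM2 and -0.18 to -0.16 for HDAC2. DUT, whose BM values are clipped, also kept its sign, over 0.21 to 0.32. Precision is limited by the 2 arrays, and for CDC25A and KIF22 by signal near background.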
